A study of Caenorhabditis elegans with 11 samples.

Results

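The genes described here are the *Caenorhabditis elegans* genes named *col* and a number, a family in which nearly every member encodes a collagen of the cuticle. Of 156 *col* genes in the count tables, 135 reached at least 10 counts in at least 2 of the 11 libraries and were taken as members, out of 46756 genes counted in all and 15378 that met the same minimum. The other 21 stayed at or below 13 counts in every library, and none of them was at 0 in all. Wild-type animals (N2 Bristol) were raised on *Escherichia coli* OP50 and moved on day 1 of adulthood to *E. coli* HT115, which carried either the empty vector L4440 (control) or a vector for double-stranded RNA against *xpo-1*, the gene of a nuclear export receptor. Collection followed on day 5, 96 hours after the move, at 20°C, with adults parted from their progeny each day by settling in buffer, so that each library is a pool of whole animals. Polyadenylated RNA was sequenced from total lysate, from monosomes (mRNA with a single ribosome) and from polysomes (mRNA with several ribosomes), in 2 libraries per group, except that *xpo-1* RNAi monosome RNA was represented by 1 library.

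The cuticle is a collagen exoskeleton that the epidermis secretes on its outer face. A new one is built beneath the old at each molt, and the collagen genes of larvae are transcribed in pulses tied to that cycle, each gene at its own point in it. Adults no longer molt, but some collagens are made in the adult, among them *col-19*, whose transcription begins at the change from larva to adult. The chains are hydroxylated on proline and folded in the endoplasmic reticulum, cleaved after secretion and joined by tyrosine cross-links. In whole-animal RNA, fewer cells of a type and less RNA per cell cannot be told apart, and neither can animals of different stages that are mixed in a pool.

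Library totals lay between 15589628 and 21828657 counts. *xpo-1* itself was at 295 and 241 CPM (counts per 1e6 counts) in control total RNA and at 34.1 and 35.9 CPM under *xpo-1* RNAi, so that the libraries followed their labels. The *col* genes took 3.20% and 5.10% of all counts in control total RNA, replicates 1 and 2, against 1.60% and 1.57% under *xpo-1* RNAi. Control replicate 2 thus stood apart from replicate 1 in these genes. The counts of all members called in total RNA and in polysome RNA are given with and without it. Counts for the near absent class, for both RNA kinds together and for the gene lists rest on both control replicates. Levels below are CPM scaled within each RNA kind (TMM), divided by exon length in kilobases where genes are set beside each other.

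Most *col* mRNAs were far lower under *xpo-1* RNAi, whereas a limited set stayed among the abundant transcripts. In total RNA 100 of the 125 members tested were lower and 8 higher (edgeR quasi-likelihood test, adjusted p < 0.05, more than 1.5-fold). Over all 13795 genes the same rule called 28.9%, of which 16.9% were lower and 12.0% higher. Both *xpo-1* RNAi libraries lay below both controls in 106 of the 125 (34.3% of all genes) and above both in 15 (34.6%). The median log2 fold change was -3.19 over the members tested (-3.06 with members at or under 3 counts set to that floor) and 0.01 over all genes. Of the 100 lower members, 60 were under 10% of their control mean, 31 of these under 2%, and 21 kept at least 25%. Of the members tested, 12 passed the minimum without any *xpo-1* RNAi library at 10 counts, 3 without any control library at 10, and 96 had 10 counts in all 4 libraries. Those 3 were *col-36*, *col-50* and *col-72*, of which *col-50* and *col-72* are among the 8 called higher. Calls of members that passed through a single group are no support for a change. With 10 counts required in every library, 81 of the 96 were lower and 5 higher (15.7% and 12.6% of all genes). Leaving out control total replicate 2, 81 were lower and 7 higher of 113 tested, with a median of -2.02, where 14.2% of all genes were lower and 13.9% higher.

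**Figure D1:**
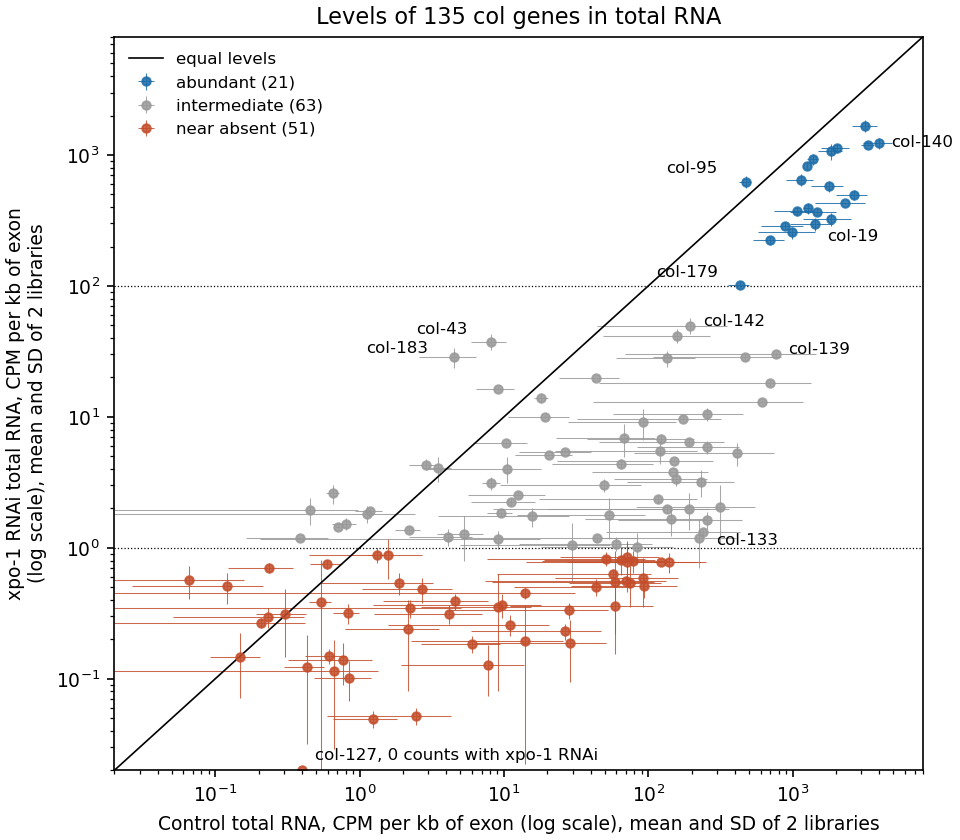
Mean level of each of the 135 *col* genes in control total RNA (x axis) and in *xpo-1* RNAi total RNA (y axis), both in CPM per kilobase of exon on log scales; bars give the SD of 2 libraries and are cut at the axis limit, dotted lines mark the class limits of 1 and 100, and the diagonal marks equal levels. The 21 abundant members lie in the upper right, most others lie well below the diagonal, and *col-127*, with 0 counts under *xpo-1* RNAi, is drawn on the lower axis.

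The members were separated by their mean level in *xpo-1* RNAi total RNA, a description of the same values that the comparison uses. At 100 CPM per kb or more stood 21 members (abundant), under 1 stood 51 (near absent), and 63 lay between (intermediate). Near absent thus names a level under *xpo-1* RNAi and not a fall. In total RNA these 51 stood at 0 to 864% of their control mean (median 3.80%), with 7 above it. Some were near the floor in control as well, such as *col-36* with 1 and 4 counts. Of the 41 tested, 33 were called lower and 2 higher (16.9% and 12.0% of all genes). The class was cut on the *xpo-1* RNAi values that the test uses. Some of its members also passed the minimum only through control, and the 2 higher (*col-50* and *col-72*) only through *xpo-1* RNAi. These counts are therefore no support for a change of the class. With 10 counts required in every library, 15 were tested and 13 called lower (15.7% of all genes). The upper limit fell in a gap, with *col-160*, *col-98* and *col-179* just inside at 257 ± 27.2, 223 ± 15.4 and 102 ± 4.51 CPM per kb (SD, n = 2), and *col-142*, *col-166* and *col-43* just outside at 49.8 ± 6.83, 41.8 ± 5.18 and 37.4 ± 5.23. A limit of 50 in place of 100 gave the same count, but *col-142* lay just under 50 and *col-179* just above 100. Without *xpo-1* RNAi total replicate 1 the class held 20 members. The lower limit fell in no gap, with *col-65*, *col-62* and *col-17* at 1.08 ± 0.13, 1.06 ± 0.50 and 1.02 ± 0.27 CPM per kb and *col-53*, *col-33* and *col-63* at 0.88 ± 0.12, 0.88 ± 0.30 and 0.84 ± 0.29, so that near absent and intermediate are parts of a continuum and a limit of 2 would have placed 74 members in the lower class.

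Summed over each class, the abundant members went from 30766 and 42670.4 CPM in control total RNA to 14668 and 12996 CPM under *xpo-1* RNAi, a mean of 37.7% of control. The intermediate members went from 3494 and 12432 CPM to 562 and 501 CPM, or 6.67%. The near absent members went from 604 and 2052 CPM to 22.9 and 21.5 CPM, or 1.67%. The 21 abundant genes thus made up 88.2% (95% Wilson interval 88.2 to 88.3, counting error only) and 74.7% (74.6 to 74.7) of all *col* member counts in the control replicates, and 96.2% (96.1 to 96.2) and 96.1% (96.1 to 96.2) under *xpo-1* RNAi.

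**Figure D2:**
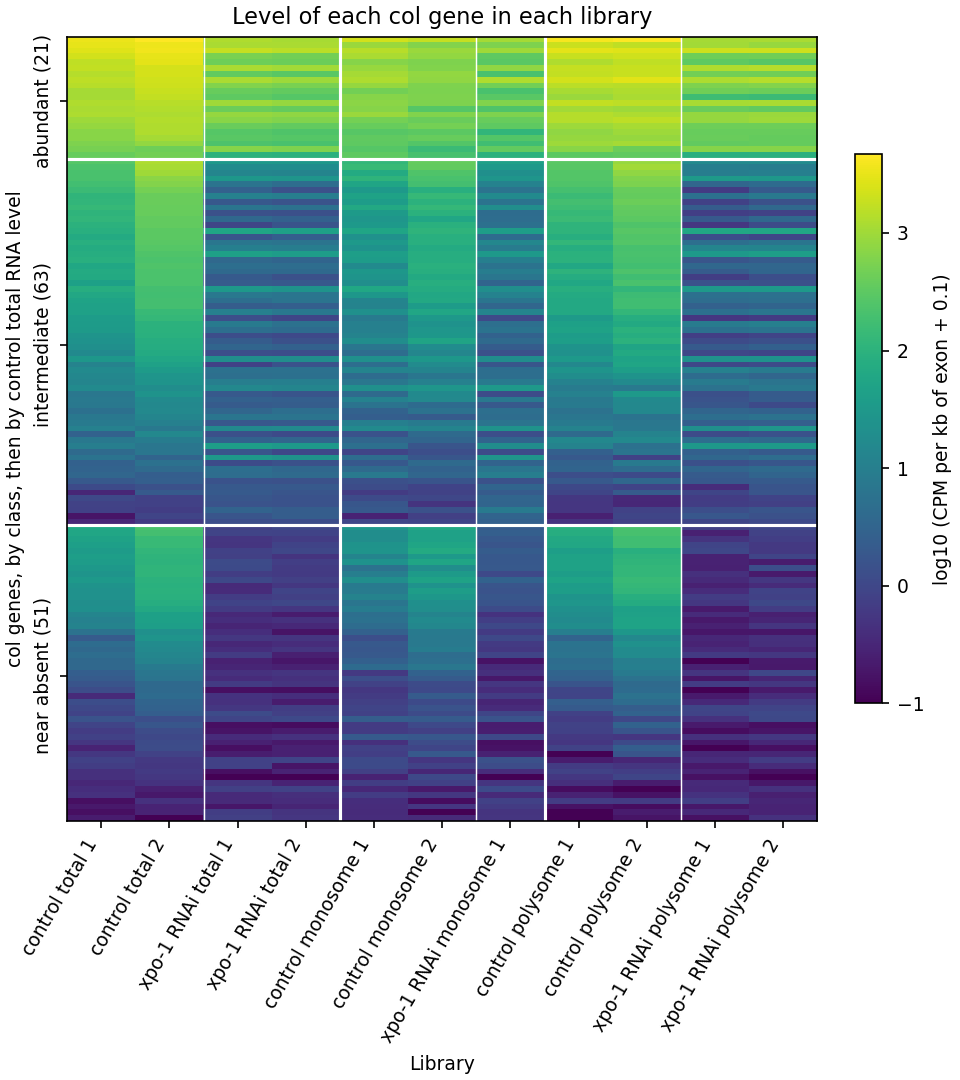
Level of each of the 135 *col* genes (rows, grouped by class and ordered by control total RNA level) in each of the 11 libraries (columns), as log10 of CPM per kilobase of exon plus 0.1. The abundant rows stay bright in every library, and control replicate 2 is brighter than replicate 1 in most of the intermediate and near absent rows. The near absent rows are dark in all 5 *xpo-1* RNAi libraries, and some of them are dark in control as well.

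*col-140* (WBGene00000713, chromosome V, 5835855 to 5836871, WBcel235) was the most abundant member in control, at 3332 and 4621 CPM per kb in total RNA, and stood at 1312 and 1149 under *xpo-1* RNAi. The groups did not overlap, and the change on the log2 scale was -1.69 ± 0.23 (SE; edgeR adjusted p = 0.000751). *col-119* (WBGene00000693, IV, 8978823 to 8979812) was at 3082 and 3547 CPM per kb in control and fell to 1212 and 1172 with the RNAi, by 1.48 ± 0.21 on the log2 scale (SE; edgeR adjusted p = 0.000772). *col-122* (WBGene00000696, IV, 9563360 to 9564441), at 2755 and 3647 in control, was the most abundant under *xpo-1* RNAi, at 1805 and 1549.6 CPM per kb, and fell by 0.93 ± 0.22 on the log2 scale (SE; edgeR adjusted p = 0.0112). The order of these genes therefore changed, since *col-140* led in control and *col-122* in *xpo-1* RNAi. Among the 20 neighbouring pairs in the order of the 21 abundant members under *xpo-1* RNAi, 11 had overlapping replicate values and 9 did not.

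The abundant members kept between 17.4% (*col-93*) and 132% (*col-95*) of their control mean in total RNA, with a median of 32.4%, and 19 of the 21 were called lower. Their median log2 fold change was -1.63, against -3.31 for the 63 intermediate and -5.40 for the 41 near absent members tested. The classes were cut on the *xpo-1* RNAi level, which enters the fold change, so this order is partly built in. Without a filter on low counts the median of all 51 near absent members was -4.70. *col-20*, *col-124* and *col-93*, among the 8 most abundant in control, had the larger falls of the class, to 18.7%, 18.5% and 17.4% of control, with log2 fold changes of -2.42, -2.44 and -2.52 (edgeR adjusted p = 0.00016, 0.000284 and 0.000231). *col-181*, *col-106*, *col-101* and *col-184* kept 55.7%, 57.5%, 65.9% and 56.4% of control, and their calls and that of *col-122* were lost when replicate 2 of total RNA was left out on either side, which left 14 of 21 abundant members called lower in each case. The call of *col-101* was lost without any 1 of the 4 libraries (edgeR adjusted p between 0.0607 and 0.149) and held in 4 of 10 alternatives. With scaling to library totals alone, which moved the median of all genes to 0.30, 15 of the 21 were called lower and *col-95* higher.

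*col-95* and *col-143* were not called in total RNA. *col-95* (WBGene00000670, III, 11703885 to 11705091) was the single abundant member with both *xpo-1* RNAi libraries above both controls, at 671 and 579 CPM per kb against 506 and 441, but its log2 fold change of 0.40 (SE 0.18) did not pass the test (edgeR adjusted p = 0.126). *col-143* kept 67.0% of control, with an adjusted p of 0.0453 at a log2 fold change of -0.58, under the fold threshold. In *col-19*, the collagen used as a marker of the adult epidermis, the level was 1103 and 1760.1 CPM per kb in control and 319 and 273 with the RNAi, which is -2.27 ± 0.25 on the log2 scale (SE; edgeR adjusted p = 0.000282). This adult collagen therefore fell to 20.7% of control while remaining in the abundant class.

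**Figure D3:**
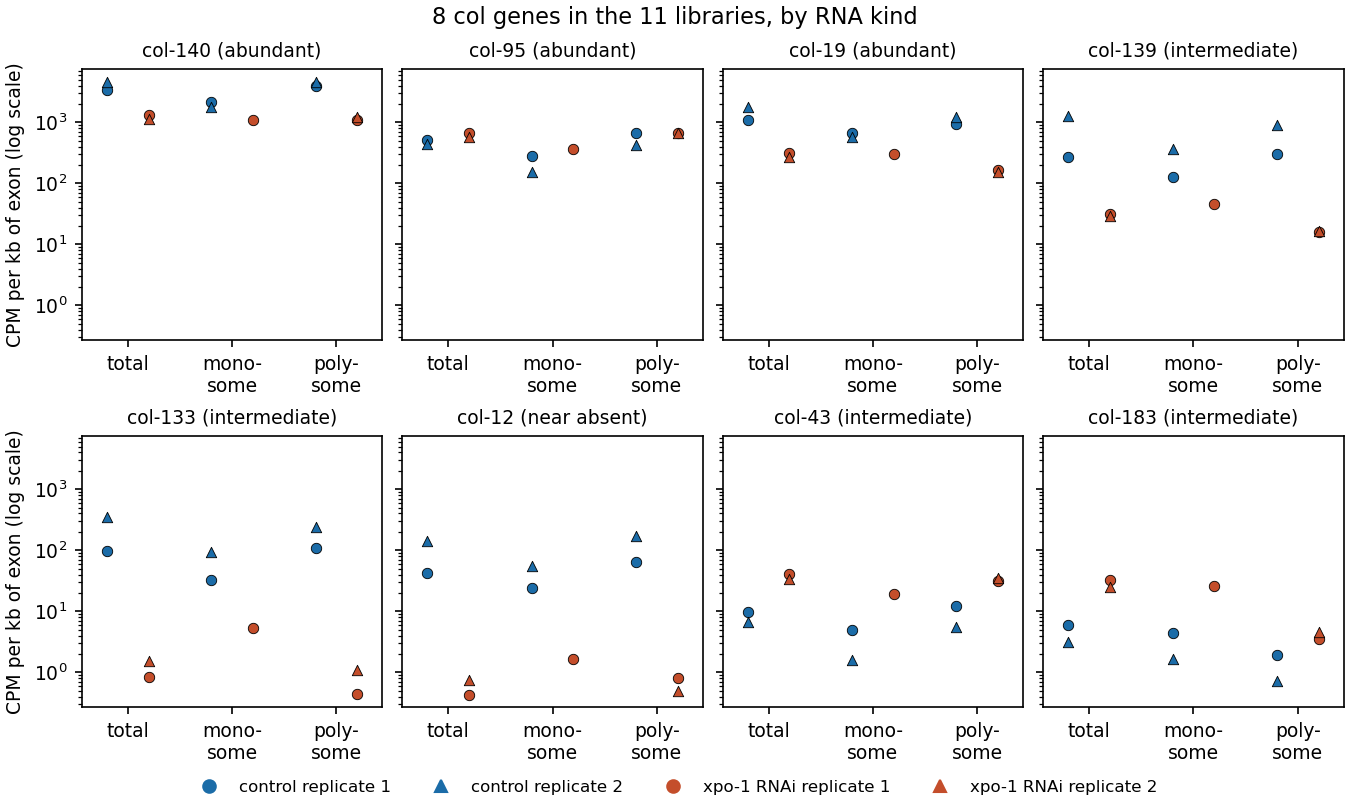
Level of 8 *col* genes in CPM per kilobase of exon (log scale) in each library, by RNA kind; circles are replicate 1 and triangles replicate 2, control libraries are blue and *xpo-1* RNAi libraries red. *col-140*, *col-95* and *col-19* stay above 100 in every library, *col-139*, *col-133* and *col-12* are lower in every *xpo-1* RNAi library with control replicate 2 above replicate 1, and *col-43* and *col-183* are higher in every *xpo-1* RNAi library.

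A further 4 members, intermediate and singled out after their values were seen, had control means above that of the lowest abundant member (*col-179*, 429 CPM per kb). In control replicate 1 alone, at 209 to 272 CPM per kb, all 4 lay below *col-179* (378). They were *col-139*, *col-129*, *col-81* and *col-159*, at 764 ± 695, 695 ± 649.5, 613 ± 572 and 469 ± 361 CPM per kb (SD, n = 2). In *col-139* the control values were 272 and 1255 CPM per kb, and those under *xpo-1* RNAi were 31.04 and 29.23. Both *xpo-1* RNAi values of *col-139* thus lay far below the lower control value, with a change of -4.66 ± 0.58 on the log2 scale (SE; edgeR adjusted p = 0.000427). The other 3 had log2 fold changes of -5.27, -5.55 and -4.03.

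The largest falls in total RNA brought members with clear control levels to about 1 CPM per kb. *col-133*, *col-161* and *col-73* were at 98.7 and 353, at 107 and 375, and at 151 and 482 CPM per kb in the control replicates, and at 0.84 and 1.52, at 1.36 and 1.28, and at 2.72 and 1.35 under *xpo-1* RNAi. *col-175*, *col-145* and *col-91*, near absent by the class limit, went from 47.9 and 139.6, from 60.4 and 220.0, and from 25.1 and 93.5 CPM per kb to between 0.26 and 0.87. The log2 fold changes of these 6 lay between -7.54 and -7.30 (edgeR adjusted p between 6.91e-05 and 0.000123). Without control total replicate 2 they lay between -6.55 and -6.09, so the size of the fall depended on that library, while the call did not.

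Collagens with a known stage of expression were spread over the classes. *col-17* and *col-10*, which are expressed in larvae, fell from 37.2 and 130.1 CPM per kb to 1.21 and 0.83, and from 51.4 and 190.4 to 4.68 and 6.23, with log2 fold changes of -6.37 and -4.46 (edgeR adjusted p = 0.000118 and 0.000336). *col-12* and *col-13*, 2 nearly identical genes used at all molts, fell from 42.7 and 141 to 0.42 and 0.76, and from 23.1 and 94.7 to 0.27 and 0.82 CPM per kb. Reads that fit both genes may have been assigned to either, so their separate values are uncertain. *col-7*, described as an adult collagen, went from 11.2 and 45.6 CPM per kb to 0.30 and 0.36, a log2 fold change of -6.38. It had 6 and 9 counts under *xpo-1* RNAi and passed the minimum only through the control libraries, where it is high. Its call is therefore no support for a fall. *col-2*, known from the dauer larva, was at 9 to 18 counts in the 4 total RNA libraries, with a log2 fold change of 0.34 (edgeR adjusted p = 0.627). *col-99* encodes a transmembrane collagen with a role in the nervous system, not a cuticle collagen. It fell from 8.17 and 10.9 CPM per kb to 1.78 and 1.90, a log2 fold change of -2.37 (edgeR adjusted p = 0.000196).

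A small group moved the other way. *col-43* (WBGene00000620, V, 8049744 to 8050893) rose from 9.76 and 6.58 CPM per kb in control total RNA to 41.1 and 33.7 (log2 fold change 2.20, SE 0.24, edgeR adjusted p = 0.000274). *col-183* (WBGene00000756, X, 13466737 to 13467736) rose from 5.87 and 3.13 to 32.4 and 25.1 CPM per kb (log2 fold change 2.68, SE 0.31, edgeR adjusted p = 0.000304). For these genes the groups were far apart, control replicate 2 was the lower control, and the calls held without each library in turn. *col-158* rose less, from 10.99 and 7.22 to 16.1 and 16.7 CPM per kb (log2 fold change 0.85, edgeR adjusted p = 0.0248), and its call was lost without replicate 2 of the control and without either *xpo-1* RNAi library. The other 5 called higher, *col-45*, *col-128*, *col-83*, *col-50* and *col-72*, had at most 76 counts in any total RNA library, with log2 fold changes of 1.99, 2.06, 1.58, 1.59 and 3.06. *col-45* had 12 counts in each control library and 58 and 57 under *xpo-1* RNAi, while *col-72* had 2 and 0 against 12 and 10. *col-50* had 7 and 4 counts in control against 17 and 24. *col-50* and *col-72* thus passed the minimum only through the *xpo-1* RNAi libraries, where they are high, so their calls are no support for a rise. Without *xpo-1* RNAi total replicate 1 only *col-43* and *col-183* remained called higher, and with DESeq2 the calls of *col-83*, *col-128*, *col-50* and *col-72* were lost.

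The classes also differed in how far the 2 control replicates lay apart. In total RNA 76 of the 135 members were more than 2-fold higher in control replicate 2 than in replicate 1 (0.5 CPM added to each), against 7.93% of all 15378 genes. In monosome RNA the count was 59 (all genes 7.81%), in polysome RNA 70 (8.66%), and 53 members were so in all 3 RNA kinds (3.83%). None of these was abundant. These are single libraries set against each other, with no test.

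In the abundant class the log2 ratio of control replicate 2 to 1 ran from -0.20 to 0.89 in total RNA with a median of 0.47, from -1.27 to 0.35 in monosome RNA with a median of -0.42, and from -0.67 to 0.38 in polysome RNA with a median of 0.15. The direction thus was not the same between RNA kinds, with 20 of 21 members above 0 in total RNA and 17 of 21 below 0 in monosome RNA. As folds in total RNA, *col-95* was at 0.87, *col-101* at 1.02, *col-8* at 1.11, *col-143* at 1.14, *col-119* at 1.15 and *col-179* at 1.27. *col-106* and *col-122* were both at 1.32, *col-184* was at 1.36, *col-181* at 1.38 and *col-140* at 1.39, and *col-20*, *col-98* and *col-178* were at 1.42. The largest folds of the class were 1.56 in *col-42*, 1.59 in *col-103*, 1.60 in *col-19*, 1.67 in *col-80*, 1.69 in *col-93*, 1.73 in *col-124* and 1.86 in *col-160*. All 21 thus lay within 2-fold, 13 of them within 1.5-fold above replicate 1 and 1 below it.

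In the other classes replicate 2 was higher in every RNA kind for most members. The medians for the intermediate class were 1.54 in total, 1.04 in monosome and 1.09 in polysome RNA, and those for the near absent class were 1.37, 1.02 and 1.19, where the medians of all genes were 0.03, 0.05 and 0.02 (SD 0.53, 0.60 and 0.58). In total RNA 11 members were more than 4-fold higher in replicate 2, namely *col-13*, *col-39*, *col-41*, *col-54*, *col-81*, *col-129*, *col-139*, *col-146*, *col-147*, *col-169* and *col-176*. With 0.5 CPM added, the highest ratio belonged to *col-41*, with 2.07 and 25.95 CPM per kb in control total RNA, 1.25 and 7.50 in monosome RNA and 2.93 and 14.7 in polysome RNA, against 0.24 to 0.95 in the 5 *xpo-1* RNAi libraries. *col-54* and *col-147* followed, with log2 ratios of 2.59 and 2.29. With nothing added *col-54* was first, at 16.6-fold on 4 and 77 counts, ahead of *col-41* at 12.5-fold. A further 65 members lay between 2-fold and 4-fold, 35 intermediate and 30 near absent, and 45 lay between 1-fold and 2-fold, 20 of them abundant. The others within 2-fold were *col-34*, *col-36*, *col-40*, *col-47*, *col-68*, *col-69*, *col-74*, *col-76*, *col-83*, *col-84*, *col-85*, *col-87*, *col-89*, *col-96*, *col-99*, *col-105*, *col-121*, *col-127*, *col-131*, *col-135*, *col-150*, *col-153*, *col-165*, *col-172* and *col-187*, 14 intermediate and 11 near absent.

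The 14 members that were not higher in control replicate 2 of total RNA were *col-2*, *col-43*, *col-45*, *col-50*, *col-53*, *col-64*, *col-72*, *col-86*, *col-95*, *col-116*, *col-132*, *col-151*, *col-158* and *col-183*. Of these, 6 are among the 8 members called higher under *xpo-1* RNAi, including *col-50* and *col-72*, which passed the minimum only through the *xpo-1* RNAi libraries. With a mean of at least 1 CPM in control, the lowest log2 ratios were -0.81 in *col-183*, -0.58 in *col-158* and -0.54 in *col-43*. For *col-183*, *col-158* and *col-43* control replicate 1 was the nearer to the *xpo-1* RNAi libraries, as it was for most members that fell, whereas for *col-128* and *col-83*, which also rose, replicate 2 was the nearer. Measured against control replicate 1 alone, the summed *xpo-1* RNAi level in total RNA was 45.0% for the abundant, 15.2% for the intermediate and 3.68% for the near absent members.

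**Figure D4:**
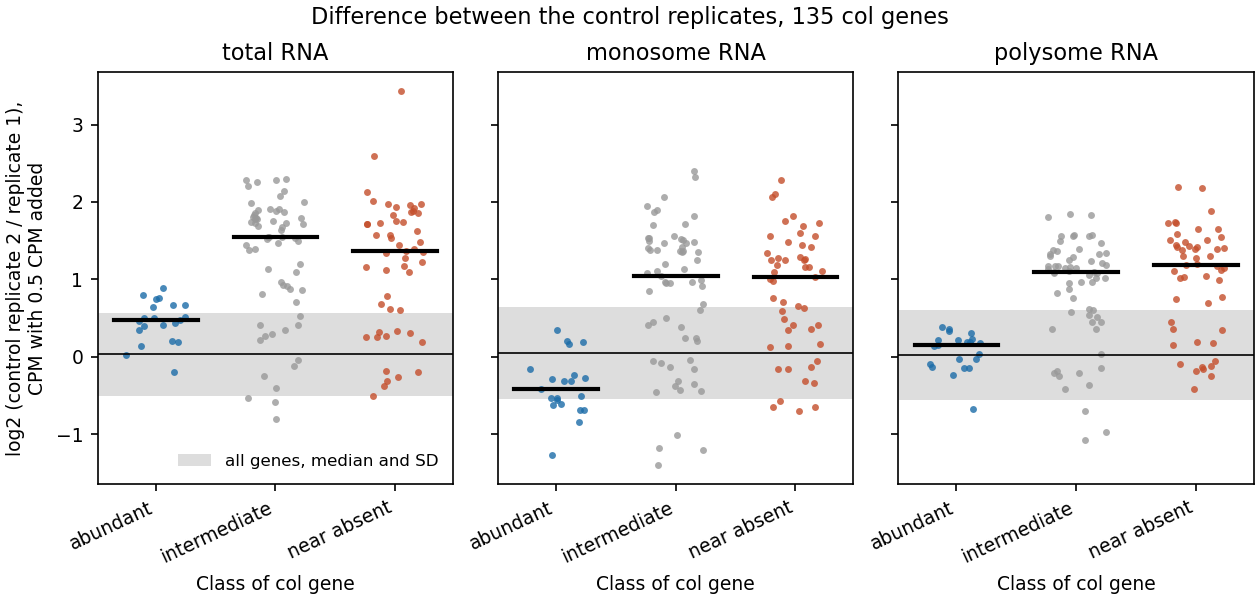
Log2 ratio of control replicate 2 to control replicate 1 for each of the 135 *col* genes (CPM with 0.5 added), by class and RNA kind; thick bars are class medians, and the thin line and grey band give the median and SD of all 15378 genes. No abundant member is more than 2-fold higher in replicate 2, while the medians of the other classes lie between 1.02 and 1.54.

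In polysome RNA most members were lower as well, in each of the classes set from total RNA. All abundant and intermediate and 38 near absent members were tested, of which 98 were lower and 3 higher, where 37.9% of 13940 genes were called, 22.4% lower and 15.5% higher. Both *xpo-1* RNAi libraries lay below both controls in 104 of the members tested (37.4% of all genes) and above both in 9 (35.2%). The median log2 fold change was -3.70 (-3.29 with members at or under 3 counts set to that floor), against -0.01 over all genes. Of the members tested, 19 passed the minimum without any *xpo-1* RNAi library at 10 counts, 2 without any control library at 10, and 81 had 10 counts in all 4 libraries. Calls of members that passed through a single group are no support for a change. With 10 counts required in every library, 68 of the 81 were lower and 4 higher (21.4% and 17.5% of all genes). Only 5 near absent members were tested then, of which 4 were lower. Without control polysome replicate 2, the counts were 81 lower and 6 higher, of 102 members tested, with a median of -2.16, where 20.0% of all genes were lower and 18.3% higher. Both RNA kinds rest on the same cultures and are no independent repeats. Of the members tested in both (21 abundant, 63 intermediate and 35 near absent), 96 were lower in both (13.4% of all 13218 genes tested in both), 3 higher in both (7.37%) and none was called in opposite directions.

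In the polysomes, *col-122* was at 3016 and 2718 CPM per kb in control and at 2088 and 2044 under *xpo-1* RNAi. *col-122*, *col-181*, *col-143*, *col-101* and *col-95*, which kept 72.1%, 73.1%, 69.3%, 67.3% and 121% of control, were the 5 abundant members not called there. The other 16 abundant members were called lower, among them *col-140*, which went from 3992 and 4655 to 1082 and 1209 CPM per kb (log2 fold change -1.92, edgeR adjusted p = 0.000203). The call of *col-184* was lost without either *xpo-1* RNAi polysome library. With library totals 13 abundant members were called lower (not *col-106*, *col-119* or *col-184*) and *col-95* higher. The fall of *col-19* was the largest of the class, to 14.8% of control, with 929 and 1209.6 against 164 and 152 CPM per kb. *col-43* and *col-158* rose to 376% and 256% of control (log2 fold changes 1.90 and 1.35, edgeR adjusted p = 0.00328 and 0.00658). The polysome call of *col-158* was lost without *xpo-1* RNAi replicate 2 (adjusted p = 0.0708). *col-183*, at 1.91 and 0.71 CPM per kb in control polysomes, rose to 3.53 and 4.50 (log2 fold change 1.60, edgeR adjusted p = 0.0300), and its call was lost without either *xpo-1* RNAi polysome library.

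**Figure D5:**
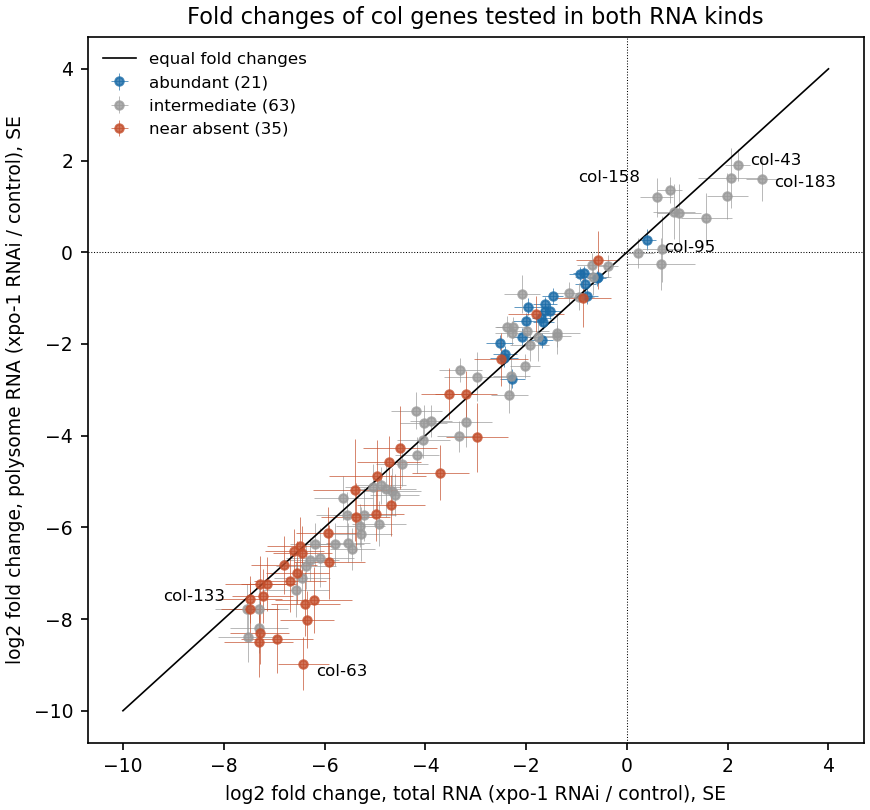
Log2 fold change (*xpo-1* RNAi over control) with its SE in total RNA (x axis) and polysome RNA (y axis) for the *col* genes tested in both, coloured by class; the diagonal marks equal fold changes. The points follow the diagonal from the risen *col-43* and *col-183* at the upper right through the abundant members to the near absent ones at the lower left, and several of the latter, such as *col-63*, lie below it.

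The difference between the fold changes in polysome and total RNA was tested as an interaction over 8 libraries. No member was called of 130 tested (0.00% of 14900 genes called), with a smallest edgeR adjusted p of 0.224 in *col-99*. At an unadjusted p under 0.05 there were 3 members (*col-63*, *col-99* and *col-119*) against 16.1% of all genes. DESeq2 gave an adjusted p to 75 of the 130 members and called 0, where it called 4.63% of all genes. Total and polysome RNA were taken from the same lysates, and with the replicate block 9 members were called (7 lower, among them *col-63*, and *col-99* and *col-135* higher), 6.92% of the members against 13.2% of all genes. The interaction call therefore depended on the block. *col-63* had one of the largest differences, with 1.05 and 0.64 CPM per kb in total RNA and 0.18 and 0.13 in polysome RNA under *xpo-1* RNAi from 38.2 and 105 and from 49.3 and 112 in control. Its log2 difference was -2.51 (edgeR unadjusted p = 0.0489, adjusted p = 0.307). *col-61*, *col-120* and *col-146* had log2 differences of -2.94, -1.62 and -1.43, and at the other end *col-50*, *col-135*, *col-187* and *col-2* had 1.88, 1.21, 1.19 and 1.02, none of which passed.

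In monosome RNA the single *xpo-1* RNAi library was below both controls in 100 of 135 members (42.1% of all genes) and under 0.5 of the control mean in 83 (19.7%). No test was run on this single library. The class sums stood at 67.6% of the control mean for the abundant, 26.0% for the intermediate and 9.13% for the near absent members. In polysome RNA they stood at 45.5%, 6.28% and 1.18%. Each RNA kind was scaled on its own. The TMM factor was 0.85 for the *xpo-1* RNAi monosome library and 1.18 and 1.12 for the polysome libraries. The order of the 2 RNA kinds therefore depends on the scaling in the abundant class. With library totals its median log2 ratio of polysome to monosome RNA was higher under *xpo-1* RNAi (1.19) than in the controls (0.79 and 1.02). With TMM, *col-95*, *col-106* and *col-181* stood above their control mean in monosome RNA, at 166%, 130% and 105%. *col-133* was at 32.9 and 93.1 CPM per kb in the control monosome libraries and at 5.29 under *xpo-1* RNAi, or 8.39% of control, where it stood at 0.45% in polysome RNA.

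The ratio of polysome to monosome CPM, scaled to library totals, was compared for 82 members with at least 10 counts in all 6 libraries used, replicate 1 of *xpo-1* RNAi against both control replicates. Abundant members had median log2 ratios of 0.79 and 1.02 in the controls and 1.19 under *xpo-1* RNAi, with 9 of 21 above both controls and 4 below. The 55 intermediate members had medians of 1.26 and 1.07 against -0.58, with 41 below both controls and 8 above, and 5 of 6 near absent members were below. Among all 11109 genes, 13.8% were below both controls and 75.6% above, and the medians went from -0.10 and -0.28 to 0.47. With *xpo-1* RNAi polysome replicate 2 over the same monosome library, an alternative added after seeing the data because the replicate numbers may not mark 1 culture, 5 of 21 abundant, 46 of 58 intermediate and 10 of 11 near absent members were below both controls (13.2% of all genes). The ratio of low members rests on few counts in the *xpo-1* RNAi libraries, and with 1 monosome library the difference was not tested.

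The members shared a compact build that did not separate the classes by length. Exon length had a median of 1015 nucleotides (753 to 2588) and coding length one of 909 (702 to 2205), and 70 of the 135 had 2 coding exons, among them 16 of the 21 abundant members. Chromosome IV held 36 members, V 28, II 22, X 21, I 16 and III 12. The abundant members lay on IV (6), X (5), III (4), V (4) and II (2), with none on I.

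Genes of different level classes lay side by side in many places, although the limit between intermediate and near absent falls in a continuum. The share of such pairs to be had from the class sizes alone was not computed. There were 25 pairs of consecutive members less than 5000 nucleotides apart, made of 43 members, and in 3 of these both genes were of one class, in 9 exactly 1 gene was abundant, and in 1 both were (*col-178* and *col-179*, X). On chromosome II the abundant *col-20* (4869607 to 4870791, 18.7% of control in total RNA) lay 2031 nucleotides from *col-17* (1.22%) and 1307 from *col-73* (0.64%), all on the minus strand. On X the risen *col-183* lay 1651 nucleotides from the abundant *col-184*, on the other strand. Other close pairs changed alike, such as *col-93* and *col-94* (log2 fold changes -2.52 and -2.27) and *col-167* and *col-168* (-5.63 and -5.93). Of the 23 pairs with both genes tested in total RNA, 20 had both called lower. The 80% of all members tested that were lower counts single genes and is no measure for pairs. The share of pairs to be had from it was not computed. The log2 fold changes within a pair differed by 0.25 to 4.89 with a median of 1.55, by less than 1 in 9 pairs.

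Over the 11 libraries the pattern of *col-140* was most like those of *col-20*, *col-138* and *col-150* (Pearson r of log2(CPM + 1) 0.98, 0.97 and 0.97), and that of *col-133* most like those of *col-161*, *col-162* and *col-38* (0.998, 0.997 and 0.997). The libraries differ by RNA kind and treatment, so these values describe shared differences between 11 points in 6 groups and carry no test.

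The cuticle collagens that carry other names, known from mutants with altered body shape, moved with the falling *col* genes. Of 21 such genes (*dpy*, *sqt*, *rol*, *bli* and *lon-3*) 20 were lower in total RNA and 20 in polysome RNA, none was higher, and the median in total RNA was -5.62. Over all genes 16.9% were lower in total RNA and 22.4% in polysome RNA. *rol-1* went from 59.6 and 163 CPM to 0.56 and 0.37, and *dpy-13* from 164 and 522 to 2.76 and 2.06 (log2 fold changes -7.91 and -7.16). *dpy-17* and *dpy-14* fell less, to log2 fold changes of -1.84 and -1.92, and differed little between the control replicates of total RNA (194.6 and 229 CPM, 105.5 and 112 CPM). *dpy-9*, at 3.27 and 13.4 CPM in control, was the one not called. The median log2 ratio of control replicate 2 to 1 was 1.65, 1.29 and 1.04 in total, monosome and polysome RNA.

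Enzymes that process collagen chains changed little beside them. Of 10 tested 2 were lower in total RNA, the prolyl hydroxylase subunits *dpy-18* and *pdi-2* (log2 fold changes -0.78 and -0.99), none was higher, and the median was -0.16. That is near the share of all genes, of which 16.9% were lower and 12.0% higher in total RNA. In polysome RNA 22.4% of all genes were lower and 15.5% higher. In polysome RNA *pdi-2* was lower (-0.95), and *bli-4*, a proprotein convertase, and *dpy-31*, an astacin protease, were higher (0.63 and 0.79). Of the basement membrane collagens, which lie beneath the epidermis and are no part of the cuticle, *emb-9* was lower in total RNA (-0.86), and *let-2* and *cle-1* were higher in polysome RNA (0.90 and 1.04).

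Markers of molting, of embryos and of the epidermis were read beside the collagens because adults, larvae and embryos cannot be separated in these pools. For all counts of calls below, the shares over all genes were 16.9% lower and 12.0% higher in total RNA, and 22.4% and 15.5% in polysome RNA. Of 16 molting genes 9 were lower and none higher in total RNA (median -1.53), and their summed level was 267 and 420.4 CPM in control against 106 and 124 CPM, with *lin-42*, *mlt-10* and *qua-1* at log2 fold changes of -2.40, -2.95 and -3.21. Their median log2 ratio of control replicate 2 to 1 was 0.84 in total RNA, so they too stood higher in replicate 2. Muscle (0.93), basement membrane collagen (1.02), sperm (0.66) and epidermis genes (0.63) did likewise, so in total RNA the trait was not particular to molting or cuticle genes. Germline, intestine and embryo genes were at -0.28, 0.17 and 0.10 there. The monosome and polysome medians were 0.72 and 0.43 for molting, 0.84 and 0.52 for muscle and -0.08 and 0.39 for basement membrane collagen genes. For sperm genes they were 1.39 and 1.03, and for epidermis genes 0.73 and 0.10. The 11 early embryo markers summed to 19.9 and 22.1 CPM in control and 9.15 and 8.75 CPM under *xpo-1* RNAi in total RNA, with 4 of 8 tested lower. *med-2* was at 0 in all 11 libraries and *med-1* in all but 3. The 8 epidermis genes summed to 197 and 261 CPM in control and 162 and 181 CPM under *xpo-1* RNAi, with 1 lower and none higher. In polysome RNA 7 molting genes were lower and 1 higher, 6 embryo markers lower and none higher, and 1 epidermis gene moved each way. Of 4 muscle, 5 intestine, 5 germline and 5 sperm genes tested in total RNA, 3, 1, 1 and 2 were lower and 0, 1, 0 and 1 higher, with medians of -0.83, 0.20, -0.18 and -0.29. In polysome RNA 3 of 5 intestine genes were higher and 1 lower (median 1.36), and the summed intestine level in monosome RNA was 10674 and 5850.3 CPM in control against 41276 CPM under *xpo-1* RNAi. The muscle genes had no call in polysome RNA, the germline genes none, and of 4 sperm genes 2 were lower and 1 higher. The part of molting animals, embryos, or epidermal, intestinal or muscle RNA in the *col* differences was not tested.

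Some members could not be judged. In total RNA 10 near absent members did not reach the minimum of the test (*col-40*, *col-47*, *col-54*, *col-61*, *col-69*, *col-84*, *col-87*, *col-105*, *col-127* and *col-151*). *col-127* had 0 counts in both *xpo-1* RNAi libraries of total RNA, where a count of 0 allows up to 3. In polysome RNA 13 did not reach it. Of the 17 members tested and not called in total RNA, 9 were intermediate, 6 near absent and 2 abundant. Exons of 32 members overlap another gene, and in 11 of these, none abundant, the neighbour held more than 10% of the member's own counts, among them *col-53*, *col-86*, *col-110*, *col-113* and *col-83*. The neighbour could far exceed the member. Beside *col-83*, which was called higher, F33A8.4 held 4892 counts over the 11 libraries, where *col-83* had at most 41 in any library. Whether reads were assigned by strand is not given in the sources used here, so the values of those 11 may include reads of the neighbour.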

How the data were processed

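The authors' deposited files held raw counts per gene for each of 11 libraries (46756 genes, with exon coordinates and exon length). The submitters' processing notes name Trimmomatic, STAR, featureCounts and Subread, without versions, and the build WBcel235. The treatment of reads that fit several genes, which matters for near-identical collagens, and the use of strand are not given in the sources used here. The 3 deposited tables of DESeq2-normalized values (11 columns) were not used.

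Counts of total RNA and of polysome RNA were fitted separately with edgeR 4.0.16 (R 4.3.3; TMM, quasi-likelihood F test, no covariate) on genes that reached 10 counts in 2 or more of the fitted libraries, adjusted by Benjamini-Hochberg across the whole table. A call needed an adjusted p < 0.05 and more than a 1.5-fold change. The difference between RNA kinds was an interaction over 8 libraries. SEs were derived from the log2 fold change and its F value. Scripts were tested on simulated data. DESeq2 1.42.0, other scalings, other filters, a replicate block and leaving out each library were alternatives. Replicates were biological duplicates by the study's methods, and no pair differed by less than sampling noise. The floor used for a count of 0 (3 counts) and the intervals reflect counting error alone. Genes were named by rule (level, fold change, nearness to a class limit, control ratio, interaction, known role), and others are marked. Members and the 10 gene lists were chosen with earlier results of these data known. No *col* sequences were analysed here.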

Additional observations from a re-analysis of the deposited data

How the results depend on the processing

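The counts of members called and called lower in total and polysome RNA stayed within 1.5 times under every alternative run. Leaving out each library, where the lone remaining one is assumed to vary like the other group, gave 84 to 99 called (81 to 92 lower) in total RNA and 86 to 90 called (81 to 89 lower) in polysome RNA. The members called higher in total RNA (8) were 4 with DESeq2, 5 with at least 10 counts in every library and 2 to 8 when a library was left out, and those in polysome RNA (3) were 7 with library totals, 5 with the replicate block and 1 to 6 when a library was left out. The median of -3.19 in total RNA was -2.50 without a filter, -2.45 with at least 10 counts in every library and -3.56 to -2.02 when a library was left out. The median of -3.70 in polysome RNA was -2.73, -2.27 and -3.85 to -2.16 in the same settings. In each, control replicate 2 gave the value nearest to 0, and filters change which low members enter. Library totals moved the median of all genes to 0.30 in total and 0.40 in polysome RNA. The interaction called 0 members, 2 (*col-63* and *col-120*) without a filter and 0 when any library was left out. Leaving out an *xpo-1* RNAi total replicate gave 20 or 21 abundant and 51 to 54 near absent members.

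Replicate numbers did not pair control with *xpo-1* RNAi libraries (correlation of replicate deviations 0.08 in total and 0.03 in polysome RNA, from 2 pairs each, so the labels share only a number). The replicate block called 111 members in total RNA, 104 in polysome RNA and 9 in the interaction, or 88.8%, 85.2% and 6.92% of members against 33.7%, 43.6% and 13.2% of all genes. Deviations of total and polysome RNA correlated at 0.72 in control and at -0.35 in *xpo-1* RNAi, and a replicate block with the *xpo-1* RNAi numbers crossed, chosen after seeing the data, called 20 members in the interaction (14 lower and 6 higher), or 15.4% against 20.0% of all genes.

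Among named genes 4 values changed sign, none of which was called as reported or with the changed sign, with *col-33* from -1.50 (without control replicate 1, where it was called) to 0.10 (without control replicate 2) in total RNA and likewise from -1.75 to 0.26 in polysome RNA, and *col-53* in polysome RNA at 0.22 with library totals and from -0.53 to 0.38 when a library was left out. The causes were not tested. The alternative limited to members without a near-identical copy was not run, since no sequences were used here. Falls of members with few counts under *xpo-1* RNAi, such as *col-7* (6 and 9 counts), are imprecise.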
